A study of Mus musculus with 9 samples.

Results

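The genes described here encode 10 enzymes that make serine, asparagine and folate-bound one-carbon units: Phgdh, Psat1, Psph, Shmt1, Mthfd1, Shmt2, Mthfd2, Mthfd1l, Aldh1l2 and Asns. They were taken by gene symbol, and all 10 were found among the 16509 genes of the expression table. The cells were MC38, which derive from a mouse colon carcinoma, and their RNA gave 9 libraries that form 3 groups of 3 replicates. Ctrl cells received vehicle only, which the sample labels give as DMSO and the methods as PBS. Cu-Cys cells received copper together with cystine. Cadict cells received a nanodrug built from copper and cystine that also carries glucose oxidase (GOx), an enzyme that consumes glucose, and GE11, a peptide that binds EGFR. No dose or exposure time for the sequenced cells is given in the sources used here, no group with GOx alone was analysed here, and the p-values measure the spread between these libraries. The methods state in general terms that cell experiments were repeated independently, while the sample labels do not say how the replicates of a group were separated.

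Serine is made from the glycolytic intermediate 3-phosphoglycerate in a short cytosolic pathway that branches off glycolysis. Serine hydroxymethyltransferases then pass a carbon from serine to tetrahydrofolate, in the cytosol and again in the mitochondria, and the carbon is used for purines, thymidylate, formate and methionine. Asparagine is made from aspartate in a single step that uses glutamine. In mammalian cells many of these genes are known targets of ATF4, the transcription factor of the integrated stress response, which is translated when amino acids run short or the endoplasmic reticulum is stressed.

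The libraries held between 17905771 and 18293056 expected counts, that is, read counts estimated per gene. The top 100 genes held 17.3% ± 0.112 of a library's counts in Ctrl (SD, n = 3), 18.01% ± 0.136 in Cu-Cys and 30.4% ± 0.668 in Cadict. Levels are therefore given as CPM, counts relative to a common library size after TMM scaling, which is meant to correct library totals for such differences in composition. The scaling factors were 1.26 to 1.27 in Ctrl, 1.21 in Cu-Cys and 0.640 to 0.665 in Cadict. Scaling by library totals alone shifted the median log2 change over the tested genes by -0.95 when Cadict was compared with Ctrl and by -0.88 when it was compared with Cu-Cys, so each direction below is given with the scalings under which it turned. Cadict replicate 2 stood farthest from the other replicates of its group, with a median chi-square of 4.73 and 7.03 times that of Poisson counting, against 1.49 to 2.92 for every other pair of replicates. Defining epithelial markers were scarce in these cells: 6 of the 8 listed markers were under 1 TPM (the deposited length-corrected unit) in every Ctrl library, and Epcam was listed at 0 there. Their summed level ran from 4.23 to 6.25 TPM in Ctrl, from 3.51 to 3.98 in Cu-Cys and from 11.6 to 13.3 in Cadict. Fibroblast markers, nearly all of it Col1a2, summed to 261 to 283 TPM in Ctrl, 132 to 139 in Cu-Cys and 21.3 to 26.8 in Cadict. The leukocyte list summed to 7.70 to 8.76, 4.79 to 6 and 15.3 to 18.7 TPM in the same order, almost all Cd68, with Ptprc at 0.07 TPM or less, and the 4 endothelial markers to at most 1.3 TPM in any library. The part of these shifts in the results below was not tested. In bulk RNA, fewer cells of a type and less RNA per cell cannot be told apart.

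A gene was called at the study's threshold, a fold change of at least 2 with an adjusted p of at most 0.001 (edgeR's quasi-likelihood test, Benjamini-Hochberg adjustment over 11949 tested genes). All 10 enzyme genes passed the filter on low counts. In Cadict against Ctrl, 9 of the 10 were called higher and 0 lower, where 20.7% of all tested genes were called higher and 27.1% lower. The 10 genes were chosen with earlier results of these data known, so the difference from these shares is not read as enrichment. When only an adjusted p of up to 0.05 was asked, all 10 were higher under TMM scaling, beside 40.6% of tested genes higher and 47.1% lower. Their median log2 fold change was 2.14, whereas over every tested gene it was -0.13. Together the 10 genes took 0.235% ± 0.0029 of all counts in Ctrl (SD, n = 3), 0.277% ± 0.0065 in Cu-Cys and 0.554% ± 0.0070 in Cadict. This share is relative to the library total, so it carries the limits of scaling by library totals. Most of it in Cadict came from Psat1 (0.172%), Phgdh (0.156%) and Asns (0.0758%).

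**Figure D1:**
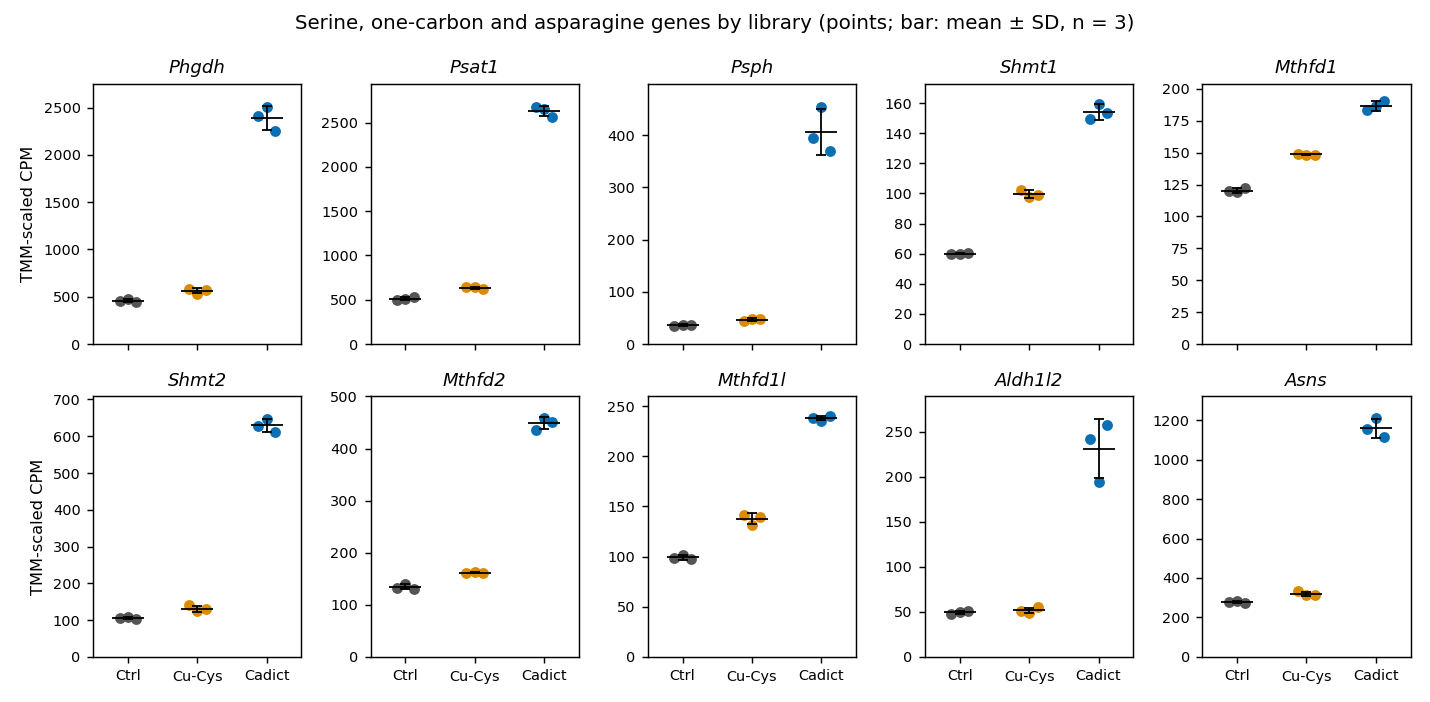
TMM-scaled CPM (linear axis from 0) of each enzyme gene in the 3 Ctrl, 3 Cu-Cys and 3 Cadict libraries. Points are libraries, the long bar is the mean and the error bar the SD (n = 3). With this scaling the Cadict points lie above all Ctrl points for every gene. The share of all tested genes without overlap was not counted. The order of Mthfd1 turned when library totals, FPKM or TPM were used instead, and Aldh1l2 is the only gene whose Ctrl and Cu-Cys points overlap.

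The serine pathway opens with Phgdh, phosphoglycerate dehydrogenase (NCBI Gene 236539), which oxidises 3-phosphoglycerate. Its level was 451, 473 and 444.5 CPM in the Ctrl libraries, 585, 532 and 569 in Cu-Cys and 2405, 2508 and 2251 in Cadict. The 3 groups did not overlap, and the Cadict libraries stood far above the rest. Here and below, the share of all tested genes that were likewise without overlap was not counted, so its absence is not read as particular to these enzymes. Phgdh was 5.23-fold higher in Cadict than in Ctrl, a log2 fold change of 2.39 ± 0.057 (SE, n = 3 and 3; edgeR adjusted p = 5.1e-15). Counts for this gene carry an uncertainty, since 47.8% of the 50-base stretches of its annotated transcripts also occur in transcripts of 23 other genes, Gm7901, Gm9347 and Gm8341 the foremost, and the counting may have split reads among them.

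Psat1, phosphoserine aminotransferase (NCBI Gene 107272), carries out the next step, which takes nitrogen from glutamate. It was at 500, 510 and 527 CPM in Ctrl, 646, 639 and 623 in Cu-Cys and 2676, 2650 and 2563 in Cadict, with no overlap between groups. The difference between Cadict and Ctrl was 2.36 ± 0.048 on the log2 scale, or 5.13-fold (edgeR adjusted p = 9.7e-16). Only 0.739% of its 50-base stretches are shared, with the single gene Gm12611.

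The pathway ends with Psph, phosphoserine phosphatase (NCBI Gene 100678), which releases serine. Psph was at 34.1, 37.0 and 36.5 CPM in Ctrl, at 43.5, 47.7 and 48.7 in Cu-Cys and at 394, 454 and 370 in Cadict (SD 43.4, n = 3). No groups overlapped. It had the largest rise of the 10 genes in Cadict, 11.3-fold, with a log2 fold change of 3.50 ± 0.078 (edgeR adjusted p = 2.3e-15). Its first exon overlaps the gene Cct6a, a chaperonin subunit on the opposite strand, and 8.82% of its 50-base stretches are shared with that gene. Whether the counting used strand is not given in the sources used here, so reads from the overlap cannot be told apart. Cct6a itself went from 521 ± 1.20 CPM in Ctrl to 1793 ± 34.8 in Cadict (log2 fold change 1.78 ± 0.045, edgeR adjusted p = 9.1e-15), a smaller change than that of Psph.

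Promoter sequence was also read for the enzyme genes, as a description. RefSeq windows from 250 bases before to 50 bases after the start site (GRCm38.p6) were matched for 9 of the 10 genes, with Aldh1l2 left without one, and 3 motifs were searched on both strands. The core of the antioxidant response element, TGACNNNGC, was present in 3 of the 9, Phgdh, Psph and Asns, beside 17.0% of 9547 tested genes and 12.4% of all 32851 windows. The E-box CACGTG was in 0 of the 9, beside 11.8% of tested genes and 7.15% of windows. The match in Phgdh lies 53 to 45 bases before the start site on the reverse strand. In Psph it lies 5 to 13 bases after the start site, also on the reverse strand, within annotated exons of Psph and of a Cct6a transcript. The stretch of the Phgdh window that lies outside annotated exons (chr3:98339991-98340219, minus strand) and 30 bases around the Psph match (chr5:129787230-129787259, minus strand) read as follows, with the core in capitals.
Phgdh upstream: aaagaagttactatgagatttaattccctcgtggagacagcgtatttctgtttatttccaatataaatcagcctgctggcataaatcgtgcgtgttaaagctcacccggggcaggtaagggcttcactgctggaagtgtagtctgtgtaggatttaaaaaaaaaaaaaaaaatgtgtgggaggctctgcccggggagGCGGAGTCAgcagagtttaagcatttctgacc
Psph site: acgcccagttGCGACGTCAttgcgcatctg
A match describes letters only. It does not show that a factor binds there.

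The cytosolic folate enzymes had log2 fold changes of 0.63 and 1.36 in Cadict against Ctrl (median 0.998 of 2 genes), beside 1.26 to 2.57 for the mitochondrial ones (median 1.98 of 4 genes). Shmt1, the cytosolic serine hydroxymethyltransferase (NCBI Gene 20425), was at 59.7, 59.8 and 60.4 CPM in Ctrl, 102.2, 97.6 and 99.1 in Cu-Cys and 149, 160 and 154 in Cadict. With TMM scaling the 3 groups were ordered without overlap, and Cu-Cys lay about midway between Ctrl and Cadict. Under library totals, FPKM and TPM, Cadict lay below Cu-Cys instead (67.15 against 96.2 TPM). Shmt1 was 2.57-fold higher in Cadict than in Ctrl (log2 fold change 1.36 ± 0.049, edgeR adjusted p = 4.8e-13), but scaling by library totals left 0.41 and deposited TPM 0.067, under the threshold. A further 3.37% of its 50-base stretches are shared with Smcr8, whose level rose from 87.9 ± 3.62 to 626 ± 67.9 CPM between the same groups.

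Mthfd1 (NCBI Gene 108156) is the cytosolic enzyme that interconverts formate, formyl-, methenyl- and methylenetetrahydrofolate. It was at 120, 119 and 122 CPM in Ctrl, 149, 148.5 and 148 in Cu-Cys and 183, 186 and 191 in Cadict, again without overlap. The log2 fold change in Cadict against Ctrl, 0.63 ± 0.045 or 1.55-fold (edgeR adjusted p = 1.6e-09), did not reach the threshold on fold. Its direction turned to -0.32 with library totals, -0.32 with FPKM and -0.66 with TPM. Under the same scalings Mthfd1 also turned lower in Cadict against Cu-Cys. None of its 50-base stretches is shared with another gene.

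The mitochondrial folate enzymes were led by Shmt2, the mitochondrial serine hydroxymethyltransferase (NCBI Gene 108037). Its Ctrl libraries were at 106, 109 and 103 CPM, its Cu-Cys libraries at 140, 124 and 130 and its Cadict libraries at 629, 647 and 613. That placed Cadict 5.94-fold above Ctrl (log2 fold change 2.57 ± 0.056, edgeR adjusted p = 1.9e-15), the second largest rise of the 10 genes. The groups did not overlap.

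Mthfd2 (NCBI Gene 17768), the mitochondrial methylenetetrahydrofolate dehydrogenase and cyclohydrolase, which many tumour cells express and most adult tissues do not, was at 133, 141 and 131 CPM in Ctrl, 161.5, 162 and 160 in Cu-Cys and 436, 458 and 451 in Cadict. The rise in Cadict was 3.33-fold (log2 fold change 1.73 ± 0.048, edgeR adjusted p = 2.5e-14). Mthfd1l (NCBI Gene 270685), which releases formate from the mitochondrial folate pool, was at 98.1, 101.9 and 97.7 CPM in Ctrl, 142, 132 and 140 in Cu-Cys and 238, 235.5 and 240 in Cadict. It was 2.40-fold higher in Cadict (log2 fold change 1.26 ± 0.048, edgeR adjusted p = 9.6e-13). Both genes had groups that did not overlap and no shared 50-base stretch. Both were under the threshold on fold with library totals, at log2 fold changes of 0.78 for Mthfd2 and 0.31 for Mthfd1l. With TPM (1 added) Mthfd2 was at 0.42 and Mthfd1l at 0.046 (limma adjusted p = 0.546). Mthfd1l also turned lower in Cadict against Cu-Cys under library totals, FPKM and TPM.

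Aldh1l2 (NCBI Gene 216188), the mitochondrial formyltetrahydrofolate dehydrogenase, which makes NADPH as it burns the formyl group to carbon dioxide, was the least stable of the 10 genes between Cadict libraries. It was at 47.1, 49.9 and 50.9 CPM in Ctrl, 51.3, 48.9 and 54.8 in Cu-Cys and 242, 194 and 257 in Cadict. Cadict replicate 2 was the lowest of its group, yet all 3 Cadict libraries lay above every other library. The rise was 4.69-fold, with a log2 fold change of 2.23 ± 0.087 (edgeR adjusted p = 1.2e-12), and 2.34 without that replicate. Transcripts of Aldh1l2 share 13.6% of their 50-base stretches with other genes, chiefly D10Wsu102e, which was at a log2 fold change of 1.28 that turned to -0.029 and -0.030 with the TPM settings (1 and 0.1 added). Cct6a, Smcr8 and D10Wsu102e were named after their values were seen.

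Asparagine synthetase, Asns (NCBI Gene 27053), transfers nitrogen from glutamine to aspartate. Its level was 277, 283 and 276 CPM in Ctrl, 333, 312 and 315 in Cu-Cys and 1154, 1211 and 1115 in Cadict. Cadict exceeded Ctrl 4.16-fold (log2 fold change 2.06 ± 0.051, edgeR adjusted p = 6.5e-15), with no overlap between groups and no shared 50-base stretch.

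Asns was also the only one of the 9 genes with a RefSeq window in which the C/EBP-ATF composite element, TGATGNAAN, was found, beside 2.55% of 9547 tested genes and 3.95% of all windows. The match, TGATGAAAC, lies on the gene's own strand 23 to 15 bases before the RefSeq start site, inside the first exon of the longer transcript Asns-201 in GENCODE M21. An antioxidant response element core lies farther upstream, 172 to 164 bases before the start site on the reverse strand. The 30 bases around the composite element (chr6:7693213-7693242, minus strand) and the stretch upstream of the annotated exon (chr6:7693255-7693459, minus strand, GRCm38.p6) are shown with the matches in capitals.
Asns composite element: cccagccacaTGATGAAACttcccgcacgc
Asns upstream: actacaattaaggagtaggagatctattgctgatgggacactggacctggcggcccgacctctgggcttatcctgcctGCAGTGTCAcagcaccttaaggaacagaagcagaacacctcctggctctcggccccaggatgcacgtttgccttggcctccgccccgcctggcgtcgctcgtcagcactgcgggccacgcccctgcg

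Cu-Cys, which carries copper and cystine without GOx or GE11, moved the same genes far less. Against Ctrl, 0 of the 10 were called in either direction, where 0.167% of tested genes were called higher and 1.47% lower. Past an adjusted p of 0.05 alone, 9 of the 10 were higher and 0 were lower, beside 22.6% of tested genes higher and 22.4% lower. With deposited TPM that count fell to 4 of 10 with 1 added (7.51% of tested genes higher and 29.4% lower). It was 3 of 10 with 0.1 added (6.66% of tested genes higher and 24.35% lower), with 0 lower in either case. The median change was 0.31 on the log2 scale, and 0.0067 over every tested gene. The rise was largest for Shmt1, 1.66-fold or 0.73 ± 0.048 on the log2 scale (edgeR adjusted p = 5.8e-08), followed by Mthfd1l at 0.47 ± 0.048 (edgeR adjusted p = 2.6e-06) and Psph at 0.38 ± 0.078 (edgeR adjusted p = 0.0012). Phgdh, Psat1, Mthfd1 and Shmt2 lay between 0.30 and 0.31, Mthfd2 was at 0.26 and Asns at 0.20 (edgeR adjusted p from 7.3e-05 to 0.00428). Aldh1l2 did not pass the test. Its log2 fold change of 0.067 ± 0.088 (edgeR adjusted p = 0.569) was smaller than its standard error, its groups overlapped, and its sign turned under library totals, FPKM and TPM.

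Set against Cu-Cys directly, Cadict was higher for 7 of the 10 genes at the study's threshold and lower for 0, beside 18.6% of tested genes called higher and 23.6% lower. All 10 passed an adjusted p of 0.05 as higher under TMM scaling (40.3% of tested genes higher and 45.6% lower), but Shmt1, Mthfd1 and Mthfd1l turned to lower under library totals, FPKM and TPM. The log2 fold changes were 3.12 ± 0.076 for Psph, 2.26 ± 0.055 for Shmt2, 2.16 ± 0.087 for Aldh1l2, 2.09 ± 0.057 for Phgdh, 2.05 ± 0.047 for Psat1, 1.86 ± 0.050 for Asns and 1.47 ± 0.048 for Mthfd2. The remaining 3 stood at 0.79 ± 0.048 for Mthfd1l, 0.63 ± 0.048 for Shmt1 and 0.33 ± 0.045 for Mthfd1. The median of the 10 genes was 1.95 and that of all tested genes -0.10 (-0.099). The comparisons share libraries pairwise, so they are not independent of each other.

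**Figure D2:**
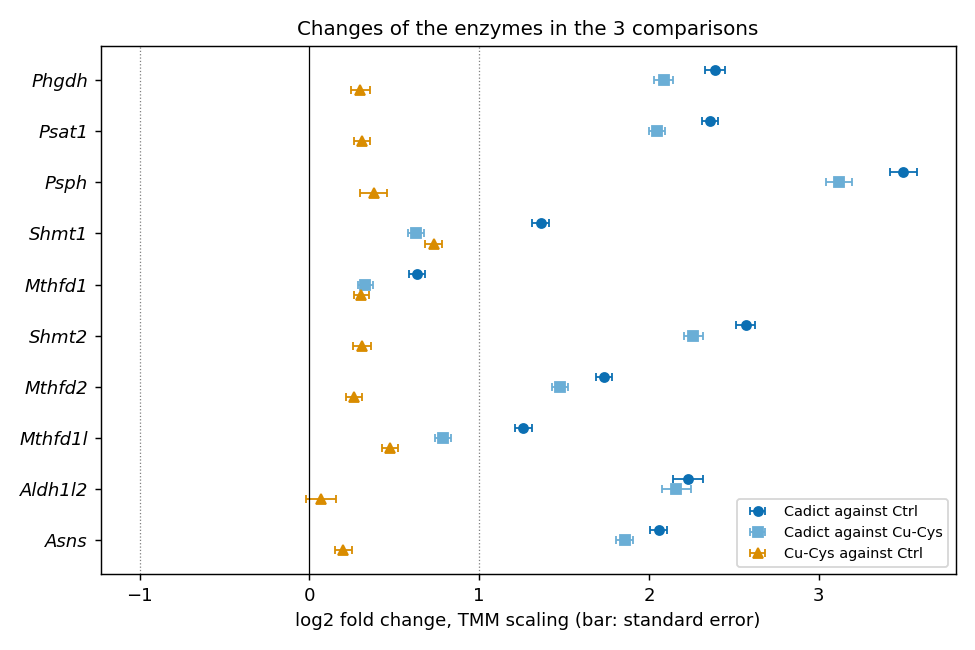
Log2 fold change with TMM scaling (points; bars: standard error) of the 10 enzyme genes in Cadict against Ctrl, Cadict against Cu-Cys and Cu-Cys against Ctrl, with dotted lines at a fold change of 2. Psph stands highest in both Cadict comparisons (3.50 and 3.12), and Shmt1 is highest in Cu-Cys against Ctrl (0.73). Under library totals, FPKM and TPM, Mthfd1 turned to lower in Cadict against Ctrl, Aldh1l2 in Cu-Cys against Ctrl, and Shmt1, Mthfd1 and Mthfd1l in Cadict against Cu-Cys.

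How far each gene moved in Cadict depended on the scaling of the libraries. With library totals the log2 fold changes in Cadict against Ctrl were 2.54 for Psph, 1.62 for Shmt2, 1.43 for Phgdh, 1.41 for Psat1, 1.28 for Aldh1l2 and 1.10 for Asns, and these 6 genes remained past the threshold. With deposited TPM 4 of the 10 were called, and with library totals or FPKM 6. DESeq2 size factors and the authors' own size factors left all 9 calls in place.

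**Figure D3:**
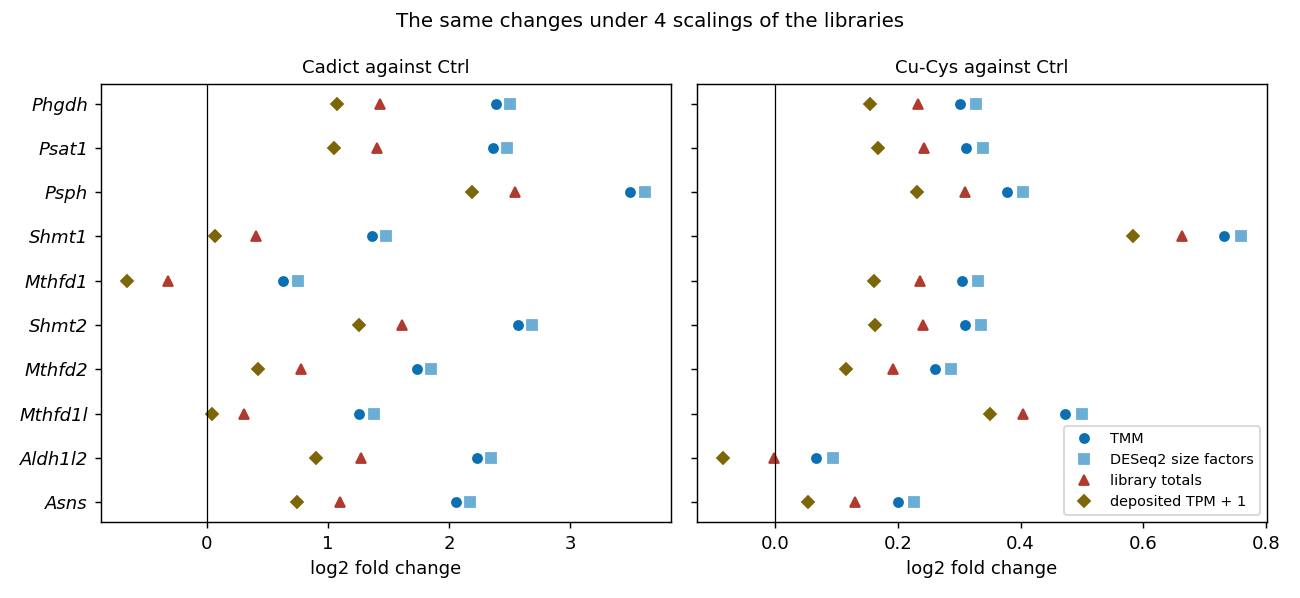
Log2 fold change of each enzyme gene under TMM, DESeq2 size factors, library totals and deposited TPM with 1 added, in Cadict against Ctrl (left) and Cu-Cys against Ctrl (right). Mthfd1 crosses the zero line at left, from 0.63 to -0.32 and -0.66, and Aldh1l2 at right. Psph stays above 2 in Cadict under all 4.

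Ratios of 2 genes within a library do not depend on that scaling. The ratio of mitochondrial Shmt2 to cytosolic Shmt1 counts was 1.77, 1.83 and 1.70 in the Ctrl libraries, 1.37, 1.27 and 1.31 in Cu-Cys and 4.21, 4.05 and 3.99 in Cadict. The ratio therefore moved in opposite directions, down by a factor of 0.745 in Cu-Cys (log2 difference -0.42 ± 0.044) and up 2.31-fold in Cadict (1.21 ± 0.037). For Mthfd2 to Mthfd1 it was 1.11, 1.18 and 1.07 in Ctrl, 1.08, 1.09 and 1.08 in Cu-Cys and 2.38, 2.46 and 2.37 in Cadict, a 2.14-fold rise in Cadict. In Cu-Cys this ratio overlapped with Ctrl (log2 difference -0.043 ± 0.043, exact permutation p = 0.4).

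The ratio of Mthfd1l to Mthfd1 was 0.820, 0.856 and 0.798 in Ctrl, 0.950, 0.887 and 0.942 in Cu-Cys and 1.299, 1.26 and 1.26 in Cadict, or 1.12-fold and 1.55-fold the Ctrl ratio. Thus the counts of each mitochondrial enzyme gene tested in this way were higher relative to its cytosolic counterpart in Cadict than in either other group. Phgdh and Psat1, the first steps of serine synthesis, showed no difference in proportion beyond the spread: Psat1 to Phgdh was 1.11, 1.08 and 1.19 in Ctrl, 1.10, 1.20 and 1.09 in Cu-Cys and 1.11, 1.06 and 1.14 in Cadict, and all groups overlapped. The log2 difference was -0.027 ± 0.051 in Cadict against Ctrl (exact permutation p = 0.7) and 0.011 ± 0.059 in Cu-Cys against Ctrl (exact permutation p = 0.7).

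Asns was compared with Nars, the cytosolic asparaginyl-tRNA synthetase, which uses the amino acid that Asns makes. Asns to Nars was 0.592, 0.593 and 0.586 in Ctrl, 0.576, 0.533 and 0.554 in Cu-Cys and 0.303, 0.337 and 0.305 in Cadict, so it fell to 0.533 of the Ctrl ratio in Cadict (log2 difference -0.91 ± 0.050). Both genes rose, and Nars rose more, from 472 ± 4.39 to 3688 ± 106 CPM. With 3 libraries against 3 the smallest p that the two-sided exact permutation test can give is 0.1, which every ratio without overlap reached. Adjusted over the 15 ratio comparisons that p was 0.136, so none can pass 0.05 in this design.

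**Figure D4:**
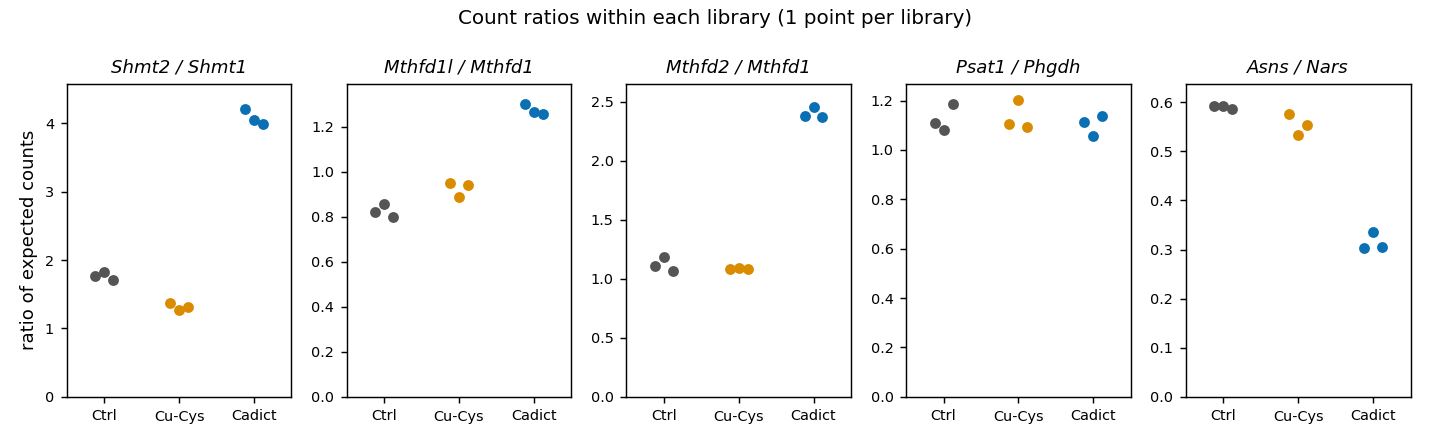
Ratio of expected counts of 2 genes within each library (linear axis from 0, 1 point per library) for Shmt2 to Shmt1, Mthfd1l to Mthfd1, Mthfd2 to Mthfd1, Psat1 to Phgdh and Asns to Nars. The first 3 ratios are highest in the Cadict libraries, Psat1 to Phgdh overlaps in all 3 groups, and Asns to Nars is lowest in Cadict (0.303 to 0.337).

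To order the genes by abundance, deposited TPM, which corrects for transcript length, was used. In Ctrl the order ran from Phgdh (632 ± 21.6 TPM, SD, n = 3, rank 212 of 16509 genes) and Psat1 (593 ± 7.88, rank 230) through Asns (365 ± 7.31), Mthfd2 (165 ± 6.55), Shmt2 (115 ± 4.10) and Mthfd1 (85.6 ± 1.38) to Mthfd1l (74.0 ± 3.61), Psph (73.4 ± 2.098), Shmt1 (63.9 ± 0.864) and Aldh1l2 (17.9 ± 0.395, rank 6661). The neighbours Mthfd1l and Psph did not differ beyond their spread. In Cadict the order changed below Asns. Psph climbed from rank 2311 to rank 454 and passed Shmt2 (rank 542) and Mthfd2 (rank 653). Mthfd1 stood at rank 1925 after rank 1990, yet its level was lower, at 54.0 ± 5.77 TPM, below Mthfd1l (76.35) and Shmt1 (67.15). Ranks also depend on the other genes: over the tested genes the median log2 change in TPM (1 added) was -1.13. Aldh1l2 stayed the least abundant by TPM, at 34.9 TPM and rank 2614. Phgdh (1333 ± 66.8 TPM) and Psat1 (1232 ± 104 TPM) held the first places in Cadict too, but their libraries overlapped there. Asns was at 612 ± 34.0 TPM in Cadict. In Cu-Cys the order from Phgdh (704 ± 38.5 TPM) and Psat1 (666 ± 7.20 TPM) to Shmt2 (129 ± 8.39 TPM) was that of Ctrl, with overlap between the first pair, and Shmt1, Mthfd1 and Mthfd1l lay together at 96.2 ± 1.55, 95.8 ± 1.10 and 94.7 ± 7.93 TPM and overlapped.

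The neighbouring pathways did not move as a block. For the counts called in each list below, the shares over all tested genes in Cadict against Ctrl were 20.7% higher and 27.1% lower. The lists, too, were chosen with earlier results of these data known. Of 15 tested genes of the folate cycle and its carriers, 1 was called higher and 3 lower under Cadict, with a median log2 fold change of -0.64. Sfxn3, a member of the sideroflexin family of mitochondrial serine carriers, fell by 1.64 on the log2 scale, from 107 ± 0.898 to 34.3 ± 1.67 CPM (edgeR adjusted p = 4.0e-13). Mtfmt, the mitochondrial methionyl-tRNA formyltransferase, and Mtrr, which keeps methionine synthase active, were the other genes called lower, at -2.98 and -1.13. The level of Mtfmt was low, at 7.475 ± 0.559 CPM in Ctrl and 0.940 ± 0.373 in Cadict. Slc19a1, the plasma membrane carrier of reduced folates, differed in sign between the treatments, at 0.87 ± 0.064 in Cu-Cys against Ctrl and -0.91 ± 0.081 in Cadict against Ctrl, and the direct comparison of Cadict with Cu-Cys gave -1.79 ± 0.077 (edgeR adjusted p = 5.1e-12). Mtfmt, Mtrr and Slc19a1 were named after their values were seen.

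Several lists were mixed in direction. Of 3 tested glycine cleavage genes, which break glycine down to a folate-bound carbon, 0 were called higher and 1 lower. The lower one, Amt, named after its value was seen, had few counts, at 1.98 CPM in Ctrl and 0.340 in Cadict. The higher values of Dld (0.76) and Gcsh (0.53) turned negative under library totals, FPKM and TPM. Of 6 tested genes of the methionine cycle and transsulfuration, 2 were called higher and 1 lower. Cth, which makes cysteine from cystathionine, rose from 1.82 ± 0.490 to 30.1 ± 0.974 CPM (log2 fold change 4.04 ± 0.13, edgeR adjusted p = 1.0e-13) and stood at 1.83 CPM in Cu-Cys. Mat2b, the regulatory subunit of methionine adenosyltransferase, fell by 1.78 on the log2 scale. Of 8 purine synthesis genes, 1 was called higher and 2 lower: Atic, which uses formyl-folate in the closing steps, was at 1.54, Prps2, a phosphoribosyl pyrophosphate synthetase, at -2.09, and Pfas, named after its value was seen, at -1.06. None of 6 tested genes of serine use was called in either direction. At the looser limit on adjusted p of 0.05, 2 were higher and 3 were lower, beside 40.6% of tested genes higher and 47.1% lower. Ptdss2, a phosphatidylserine synthase, was at -0.67 and Sptlc1, a subunit of serine palmitoyltransferase, at 0.62, which turned negative under library totals, FPKM and TPM.

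Of 16 tested genes of aspartate, glutamate and asparagine metabolism, 5 were called higher and 3 lower under Cadict. Got1, the cytosolic aspartate aminotransferase, rose from 67.0 ± 4.54 to 625 ± 9.96 CPM (3.22 ± 0.059, edgeR adjusted p = 3.5e-16) and Nars 7.81-fold. The proline synthesis genes Aldh18a1 and Pycr1 were at 1.94 and 1.45, and Gpt2, also called higher, was at 1.35. The 3 called lower were Gpt (-1.67, from 1.65 CPM in Ctrl), Oat (-1.305, from 159 to 64.4 CPM) and Asrgl1 (-1.28). These genes other than Got1 and Nars were named after their values were seen. Of 5 carriers of neutral amino acids, 3 were called higher and 0 lower. All 5 passed an adjusted p of 0.05 as higher, beside 40.6% of tested genes higher and 47.1% lower. Under library totals 2 of the 5 changed sign. Slc38a2, called higher and named after its value was seen, was at 1.21 and turned to -0.077 with TPM (1 added). With that setting Slc1a4 was at 0.044. Slc6a9, a glycine carrier, went from 28.0 ± 1.18 to 463 ± 13.1 CPM (4.05 ± 0.062, edgeR adjusted p = 7.1e-17) and Slc1a4, a carrier of alanine, serine and cysteine, was at 1.35.

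Among 10 genes of the ATF4 axis, 6 were called higher and 0 lower under Cadict, beside 20.7% of tested genes called higher and 27.1% lower. Their median log2 fold change was 2.20. Under library totals 4 of the 10 changed sign and the median was 1.25. Atf3, a transcription factor of acute stress, went from 14.8 ± 2.15 to 1651 ± 90.8 CPM (6.80 ± 0.093, edgeR adjusted p = 3.2e-17), and Ppp1r15a, which brings a phosphatase to eIF2 alpha, from 25.0 ± 0.323 to 1341 ± 44.0 CPM (5.74 ± 0.068). Ddit3, the factor CHOP, rose by 2.59 on the log2 scale. Atf4 itself, which is controlled largely at translation, was at 372 ± 12.2 CPM in Ctrl, 420 ± 10.96 in Cu-Cys and 595 ± 44.5 in Cadict, a log2 fold change of 0.68 ± 0.056 that turned to -0.28 with library totals and was also negative with FPKM and TPM. Trib3 and Chac1, named after their values were seen, were at 0.37 and 0.42 and likewise turned negative. In Cu-Cys against Ctrl 0 of these 10 genes were called, and their median was 0.075. When only an adjusted p of 0.05 was asked, 3 were higher and 4 lower, beside 22.6% of tested genes higher and 22.4% lower. The higher genes there were Ppp1r15a (0.70 ± 0.064, edgeR adjusted p = 1.1e-06), Ddit3 (0.31) and Atf4 (0.18). The lower ones were Nupr1 (-0.68), Sesn2 (-0.49), Atf3 (-0.47) and Trib3 (-0.34), of which Nupr1 and Sesn2 were also named after their values were seen.

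**Figure D5:**
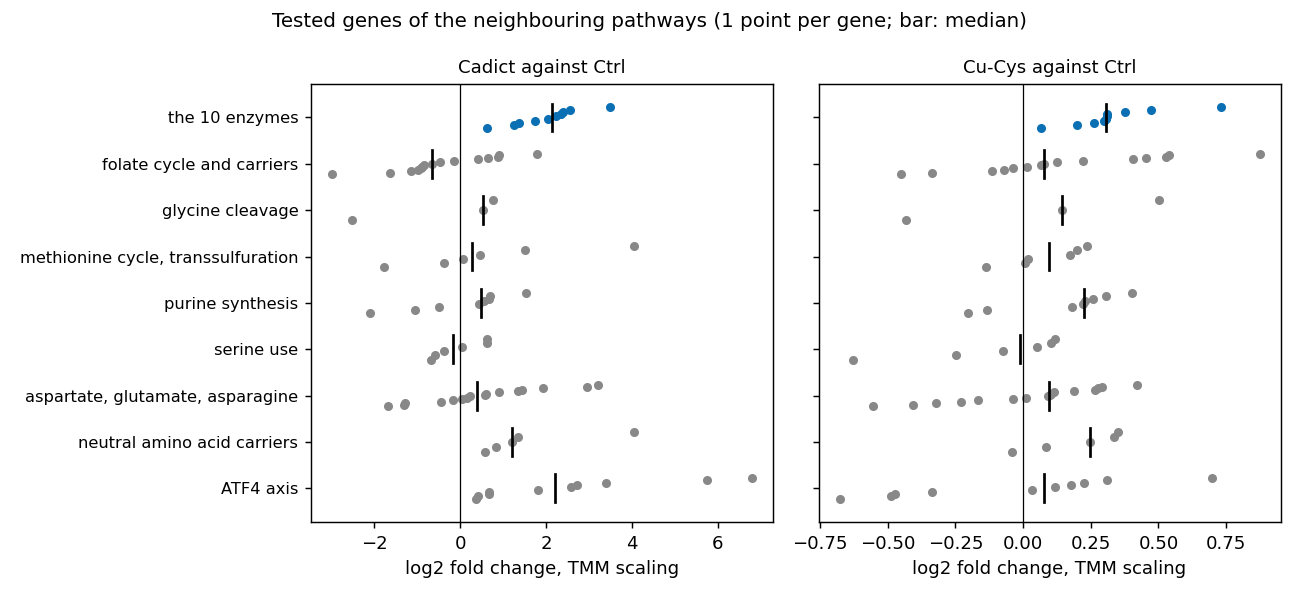
Log2 fold change with TMM scaling of the 10 enzyme genes and of each tested gene of 8 neighbouring lists, in Cadict against Ctrl (left) and Cu-Cys against Ctrl (right; the axis is narrower). Points are genes and bars medians. The medians at left are 2.14 for the enzymes and 2.20 for the ATF4 axis, and -0.64 for the folate cycle and carriers. Under library totals the medians of the glycine cleavage, methionine, purine and aspartate lists at left turned negative.

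Other genes shared the pattern of each enzyme gene over the 9 libraries. Likeness was measured as the root-mean-square difference of log2 CPM centred on the Ctrl mean, among 8541 genes averaging at least 10 CPM, as a description. Nearest to Phgdh were U2af1 (0.031) and Ddx39b (0.035), to Psat1 Sgms2 and Etf1 (0.048 each), to Shmt2 Ctsd (0.033) and Ptges3 (0.058), and to Asns Ctsb (0.031) and Bcap31 (0.039). Mthfd1 was nearest to Tspan14 (0.028) and Thumpd1 (0.033), Mthfd2 to Cops8 (0.036) and Mlx (0.045), and Mthfd1l to Abcf2 (0.032) and Mafg (0.033). For Shmt1 they were Jmjd6 (0.050), about as near as those of Psat1, and Slc5a3 (0.069). The closest genes lay farther away for Aldh1l2 (Zswim6, 0.069, and Prkx, 0.089) and Psph (Fhl2, 0.117, and Sat1, 0.118). Within the 10 enzymes the most alike pair was Phgdh and Psat1, at 0.057, and the least alike Psph and Mthfd1, at 1.65.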

How the data were processed

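MC38 RNA was poly(A)-selected per the labels. Sample labels name a column kit and DNA nanoball sequencing, the methods TRIzol and a Novaseq. The submitters' processing notes list HISAT2 2.1.0, Bowtie2 2.3.4.3, RSEM 1.3.1 and the builds GRCm39 and GRCh38.p13, with no roles given. The authors deposited 1 table with expected counts, FPKM, TPM and a signal value (counts divided by a size factor per library; method not given in the sources used here). Columns named CC were read as Cu-Cys by its initials and CCGE as Cadict, inferred from its components. Columns of group averages were not used.

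Expected counts (9.77% not whole) were rounded and fitted in edgeR 4.0.16 (R 4.3.3, filterByExpr, TMM, quasi-likelihood, 1 model over 9 libraries). The fit was checked on simulated data in which few genes changed, equally in both directions. That check does not test the scaling of libraries as different in composition as these. A count of 3 corresponds to 0.164 to 0.168 CPM. Deposited FPKM (with 1 added) and TPM (with 1 or 0.1 added) were tested with limma 3.58.1, and DESeq2 1.42.0 was run on the counts. Library ratios used exact two-sided permutation tests, Benjamini-Hochberg adjusted. Shared 50-base stretches came from GENCODE M21 transcripts (GRCm38), an older build than GRCm39. The members and gene lists were chosen with earlier results of these data known. The genes named outside the members were, per list, the 2 with the largest change in Cadict against Ctrl averaging at least 10 CPM, plus Atf4 and Ddit3, and those said in the text to be named after their values were seen, and per member the 2 most alike. A gene selected in this way is not reported here; list counts include it. Samples were grouped by title. After the mean of each group was subtracted from log2 CPM, replicates sharing a number correlated by -0.145 to 0.143 over 9659 genes. They were therefore not treated as pairs. No replicate pair agreed within sampling noise.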

Additional observations from a re-analysis of the deposited data

How the results depend on the processing

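All 30 changes of single enzyme genes (10 genes, 3 comparisons) kept their direction and their side of the threshold under the DESeq2 Wald test, DESeq2 size factors, both other filters on low counts, the authors' size factors (chosen after seeing the data) and the omission of any of the 9 libraries. The fit with the replicate number as a block also changed no call, with 9 genes called in Cadict and 0 in Cu-Cys relative to Ctrl, and 7 in Cadict relative to Cu-Cys. Without any 1 library those counts stayed at 9, 0 and 7, and the median log2 fold changes ran from 2.11 to 2.18, from 0.28 to 0.32 and from 1.93 to 1.97. Every enzyme gene had at least 788 counts in each library, the lowest being Psph in Ctrl replicate 1, so depth did not limit these values.

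Scaling mattered more. In Cadict against Ctrl the median of the 10 genes was 2.26 with DESeq2 size factors, 2.24 with the authors' size factors, 1.19 with library totals, 1.15 with FPKM, and 0.82 and 0.84 with TPM (1 and 0.1 added), where 4 and 4 genes were called. In Cu-Cys against Ctrl it was 0.24, 0.23, 0.16 and 0.16 with library totals, FPKM and the same TPM settings. With no limit on the fold, 9 genes passed an adjusted p of 0.05 there under TMM, library totals and FPKM, but 4 and 3 under TPM (1 and 0.1 added). Of tested genes, 22.6%, 15.45%, 14.0%, 7.51% and 6.66% were higher in that order, and 22.4%, 28.9%, 27.3%, 29.4% and 24.35% lower. The median of the 10 genes in Cadict against Cu-Cys was 2.05 with DESeq2 size factors. It was 1.07, 1.06, 0.79 and 0.79 with library totals, FPKM and TPM (1 and 0.1 added), and 2 and 3 genes were called with TPM. The share of all tested genes called with TPM was not counted in either Cadict comparison. There were 5 changes that reversed under library totals, FPKM, TPM + 1 and TPM + 0.1: Mthfd1 (-0.32, -0.32, -0.66, -0.67) in Cadict against Ctrl, Aldh1l2 (-0.0016, -0.016, -0.086, -0.090) in Cu-Cys against Ctrl, and Shmt1 (-0.26, -0.25, -0.52, -0.52), Mthfd1 (-0.55, -0.55, -0.82, -0.83) and Mthfd1l (-0.096, -0.035, -0.30, -0.31) in Cadict against Cu-Cys. These settings leave the larger share of counts in the top genes of Cadict uncorrected. TMM in turn was used where 40.6% of tested genes were higher and 47.1% lower in Cadict against Ctrl (edgeR adjusted p of at most 0.05). Which scaling gives the true direction of these 5 changes was not tested. The ratio of Psat1 to Phgdh had no stable sign: leaving out 1 library at a time gave log2 differences of -0.056 to 0.011 in Cadict against Ctrl (0.0030 without Cadict replicate 2, 0.011 without Ctrl replicate 3), of -0.032 to 0.050 in Cu-Cys against Ctrl (-0.032 without Cu-Cys replicate 2, -0.018 without Ctrl replicate 2) and of -0.064 to 0.0043 in Cadict against Cu-Cys (0.0043 without Cu-Cys replicate 2).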
